A study of Mus musculus with 42 samples.

Results

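Here 10 mouse genes that govern how an olfactory sensory neuron settles on its odorant receptor and carries that receptor to the cell surface were followed in the main olfactory epithelium. They were listed by name for these known roles, with earlier results of these data known, so counts of them against all genes are descriptive. All 10 were present among the 44674 genes of the count table and among the 21168 genes with enough reads to be tested. They comprise 4 transcriptional factors of receptor choice (Lhx2, Ldb1, Ebf1 and Emx2), 4 genes of receptor feedback and its chromatin (Atf5, Eif2ak3, Kdm1a and Lbr) and 2 receptor chaperones (Rtp1 and Rtp2). The study asked which odorant receptors respond to food odours, by pS6-ribotrap, in which an antibody to phosphorylated ribosomal protein S6 captures ribosomes, with their RNA, from recently active cells. Each sample was a pool of 4 epithelia, sequenced as the pulldown and as the unselected input of the same pool, which gave 42 libraries from 21 pools. All animals were adult male C57BL/6NCrl mice of 8 to 12 weeks with no transgene. Mice of 5 pools, the controls, met no odour, for a time that was not stated. Mice of the other pools met a food odour for 1 h. In 6 pools it was that of normal chow diet (NCD). In 5 pools, labelled Bacon, it was that of a bacon-flavoured diet with the nutrients of NCD (BFD). In 5 pools, labelled HFD, it was that of a lard-based high-fat diet (HFD_lard).

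A mouse olfactory sensory neuron expresses a single allele of a single odorant receptor gene. In a differentiating neuron, Lhx2, Ebf1 and the adaptor Ldb1 bring together enhancers from several chromosomes at the chosen gene, while the other receptor genes lie in silent heterochromatin kept away from the nuclear envelope by downregulation of the lamin B receptor, Lbr. The demethylase Kdm1a (Lsd1) permits a first receptor to be switched on. The receptor protein then engages the endoplasmic reticulum kinase Perk (Eif2ak3), translation of Atf5 follows, and Kdm1a falls, which stabilises the choice. Rtp1 and Rtp2 carry the receptor to the membrane, which helps to end the stress signal.

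Values below are read counts scaled to a common library size by trimmed means (CPM), or the log2 of pulldown CPM over input CPM of the same pool, here called the log2 ratio. A log2 ratio above 0 means that a transcript took a larger share of the captured RNA than of the whole tissue. Because the samples were bulk tissue, fewer cells of a type and less of a transcript per cell cannot be told apart. Nothing in the labels gives more than pools of the same group, so p-values measure the spread between these pools. All p-values were two-sided, came from edgeR's quasi-likelihood test and were adjusted over the 21168 genes. A gene was called at an adjusted p under 0.001, the study's own threshold.

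Pulldowns held 25392812 to 36738330 counts and inputs 24839555 to 36781553. Neuronal identity was present in every pool, and in pools without odour the log2 difference between pulldown and input was -0.07 for Omp (olfactory marker protein), 0.64 for the channel gene Cnga2 and 0.53 for Gap43 of immature neurons. Non-neuronal Cyp2g1 (sustentacular cells) lay at -2.06 and Krt5 (horizontal basal cells) at -2.29. Without odour, 5 of 8 mature and 5 of 6 immature neuron markers were called higher in the pulldown and 0 lower. Averaged over the 4 odour groups these counts were 7 and 3, with 1 called lower in each list. Without odour, all 5 sustentacular and 3 of 4 horizontal basal markers were called lower. The pulldown was not purely neuronal, since all 4 listed red blood cell genes and 3 of 4 immune markers were called higher in it. So was 1 marker each of the gland (4), ciliated (3) and stromal and vessel (4) lists, with 1, 0 and 3 lower. Sequence resembling ribosomal RNA, from 7 genes, took a mean of 28.1% of input counts without odour against 15.8% with NCD, 11.8% with BFD and 15.6% with HFD_lard, so this share moved with odour. The BFD replicate 1 pulldown stood apart, with a sustentacular marker sum of 5398 CPM where the median of the BFD pulldowns was 3099.

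In the whole tissue, the members spanned a wide range of levels when input CPM was divided by exon length. Atf5, a transcription factor of the stress response (chr7:44812256-44816658, minus strand, GRCm38), was the most abundant with 464 ± 74.7 CPM per kb (SD, n = 21 inputs). Rtp1 (chr16:23429133-23433960, plus) followed with 267 ± 22.8 and Rtp2 (chr16:23925548-23932394, minus) with 108 ± 7.53. Then came Lhx2 (chr2:38339281-38369733, plus), a LIM-homeodomain factor, with 64.2 ± 4.93 CPM per kb, and Ebf1 (chr11:44617317-45008091, plus), with 48.6 ± 4.61. Emx2 (chr19:59458372-59465357, plus), a homeodomain factor, reached 15.8 ± 1.08 CPM per kb, Ldb1 (chr19:46031570-46045214, minus) 14.8 ± 1.16 and Kdm1a (chr4:136550540-136602723, minus) 12.8 ± 0.864. Lowest were Lbr (chr1:181815335-181843046, minus) with 2.61 ± 0.214 CPM per kb and Eif2ak3 (chr6:70844515-70905245, plus) with 1.82 ± 0.179. The ranges of Atf5 and Rtp1 overlapped, as did those of Lhx2 with Ebf1 and of Emx2, Ldb1 and Kdm1a with each other. The ranges of Lbr and Eif2ak3 did not overlap, although both rested on few reads, with 201 to 504 counts per library for Lbr and 209 to 631 for Eif2ak3.

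Rtp1 and Rtp2, both on chromosome 16, are alike in coding sequence, so how much of it they share was checked. Over 663 aligned coding bases of the GRCm38 reference, 545 were identical (82.2%), and the longest run common to both was 47 bases. That run is printed here in capitals with 30 bases of coding sequence on each side. It is shorter than a read of 75 bases, so a full read also covers bases that differ between the genes. The run spans chr16:23431451-23431497 on the plus strand in Rtp1 and chr16:23927377-23927423 on the minus strand in Rtp2.
Rtp1: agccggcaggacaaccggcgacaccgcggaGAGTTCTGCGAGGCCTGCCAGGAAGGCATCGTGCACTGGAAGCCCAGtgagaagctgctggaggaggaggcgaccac
Rtp2: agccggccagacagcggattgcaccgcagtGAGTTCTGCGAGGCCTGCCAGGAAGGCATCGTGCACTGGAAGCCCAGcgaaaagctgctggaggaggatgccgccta
Counted in 31-base words, 0.809% of Rtp1 and 0.947% of Rtp2 were shared with the other gene, so nearly all of each could be told from the other.

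The library kit does not mark strand, so overlapping antisense genes can share reads. That applied to 8.58% of Lbr's words, 7.81% of Emx2's, 6.66% of Eif2ak3's and at most 3.2% in the other members. For Emx2 the partner was the antisense gene Emx2os, with a mean of 50.6 CPM in pulldowns and 30.6 CPM in inputs without odour. The Emx2os log2 difference between pulldown and input was 0.73 (adjusted p = 2.18e-08, edgeR), close to the value for Emx2 itself.

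Without odour, the pulldown already held more of every factor of receptor choice than the input did, and most of all Lhx2 and Atf5. In these 5 pools, 7 of the 10 members were called higher and 1 lower, against 35.8% of all tested genes called in either direction, 19.8% higher and 16% lower. The median log2 difference was 0.54 over the members and 0.01 over all tested genes.

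Among the choice factors, Lhx2 stood highest. In the pools without odour, its log2 ratio was 1.52, 1.43, 1.48, 1.45 and 1.12, from pulldowns of 739, 678, 704, 684 and 562 CPM. All were well above 0, with replicate 6 the lowest. Pulldown exceeded input 2.64-fold (log2 1.40, SE 0.09, adjusted p = 3.68e-12). Ldb1, the adaptor that holds Lhx2-bound enhancers together, had log2 ratios of 0.93, 0.83, 0.84, 1.18 and 0.60 (1.84-fold, adjusted p = 1.01e-10). Emx2, needed for expression of many receptor genes, had 0.85, 0.68, 0.77, 0.97 and 0.57 (1.70-fold, adjusted p = 9.28e-10). Ebf1, whose sites accompany those of Lhx2 at receptor genes and enhancers, was the least captured of the 4, with 0.23, 0.22, 0.18, 0.70 and 0.31 (1.25-fold, adjusted p = 0.000126). Its highest ratio, in replicate 4, came with the lowest of the 5 inputs.

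Among the feedback genes, Atf5 and its upstream kinase were also captured above input, and Lbr was not. Atf5 had log2 ratios of 1.56, 1.25, 1.58, 1.61 and 1.25 (2.73-fold, SE 0.13 on the log2 scale, adjusted p = 4.36e-09). Eif2ak3 had 0.79, 0.41, 0.45, 1.27 and 0.81, a wide spread for a gene with few reads (1.68-fold, adjusted p = 1.66e-07). Kdm1a lay only a little above input, with 0.30, 0.24, 0.24, 0.13 and 0.22 (1.17-fold, adjusted p = 0.000362), and this call was lost when replicate 1, 2, 3 or 6 was left out. Lbr lay below 0 in each pool, with -0.56, -0.06, -0.32, -0.16 and -0.47, but missed the threshold (log2 -0.32, SE 0.10, adjusted p = 0.00977).

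Both chaperones lay below input. Rtp2 fell below input in all 5 pools, with log2 ratios of -0.40, -0.34, -0.36, -0.29 and -0.25 (0.796-fold, adjusted p = 1.21e-05). Rtp1 had -0.26, -0.18, -0.18, -0.30 and -0.11, which missed the threshold (log2 -0.21, SE 0.06, adjusted p = 0.00542). The ranges of these 2 genes lay wholly below those of Lhx2, Ldb1, Emx2, Atf5 and Eif2ak3.

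**Figure D1:**
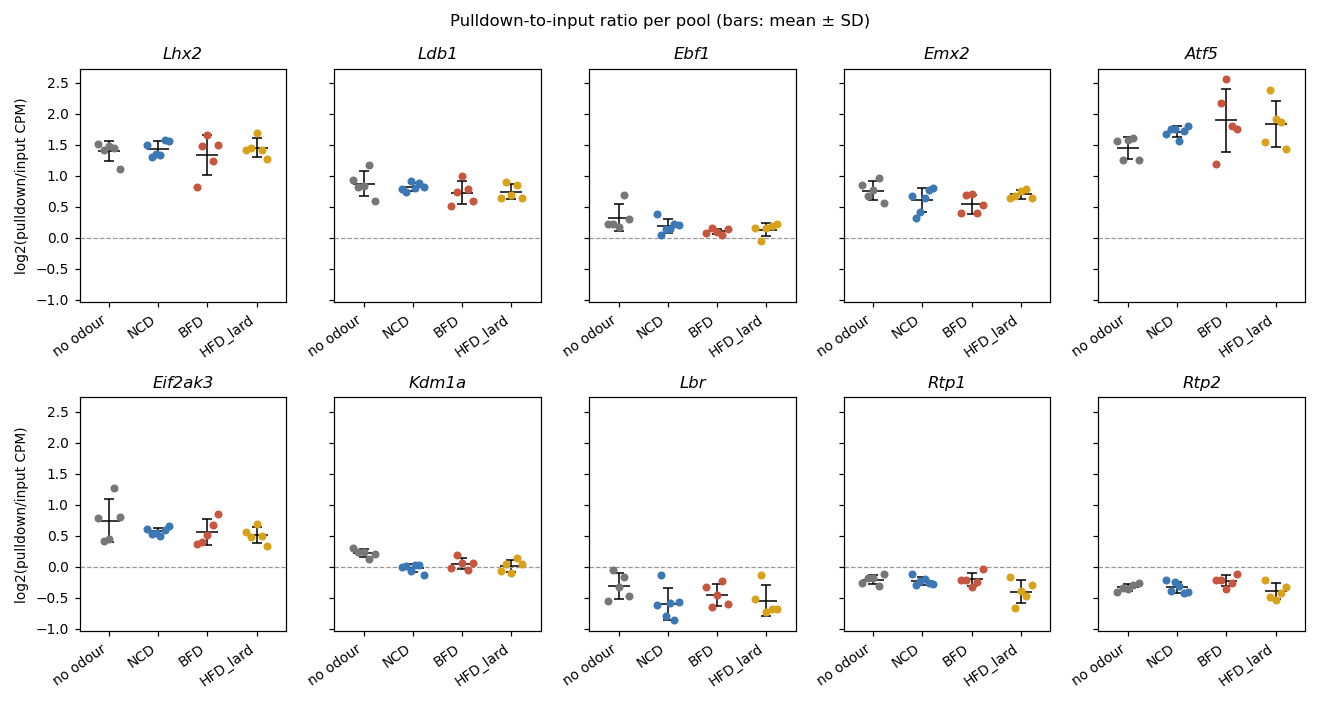
Log2 ratio of pulldown CPM to input CPM (y axis) in the 4 odour groups (x axis) for each of the 10 members (panels), 1 point per pool with the group mean and SD, and a horizontal line at 0 for equal shares. Lhx2 and Atf5 lie highest, with all 21 pools above 0, and Lbr, Rtp1 and Rtp2 lie below 0 in all 21.

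Averaged over the 4 odour groups, Atf5 was 3.30-fold (adjusted p = 5.51e-17) and Lhx2 2.66-fold (adjusted p = 4.90e-20) higher in pulldown than in input. Of the 21168 tested genes, Atf5 ranked 221 and Lhx2 590 from the top by this mean, whereas Ldb1 ranked 2858, Emx2 3759 and Eif2ak3 4164. Ebf1 and Kdm1a lay near the middle and Rtp1, Rtp2 and Lbr below it. Of the members, 6 were called higher and 3 lower, yet 67.2% of all genes were called, 34% higher and 33.3% lower, so with this many pools most genes pass. The log2 ratio was above 0 in all 21 pools for Lhx2, Ldb1, Emx2, Atf5 and Eif2ak3, in 20 for Ebf1 and in 14 for Kdm1a. It was above 0 in 0 of the 21 for Lbr, Rtp1 and Rtp2. Lbr (mean log2 -0.48, adjusted p = 1.47e-09) and Rtp1 (-0.26, adjusted p = 1.30e-08) passed the threshold here, and Kdm1a did not (0.07, adjusted p = 0.0140).

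The main question of the design was whether food odour altered this capture. Each odour was set against the same 5 pools without odour, so the 3 comparisons are not independent. At the study's threshold, 0 of 10 members changed in log2 ratio with NCD, BFD or HFD_lard odour, where 0.524%, 3.78% and 1.22% of all genes did. At an unadjusted p under 0.05, edgeR gave 1 member for NCD, 4 for BFD and 3 for HFD_lard, beside 27.9%, 33.6% and 29.6% of all tested genes. DESeq2, with the same design, gave 1, 4 and 4, of which 1 in each comparison passed an adjusted p of 0.05. DESeq2 on pulldown counts divided by input, the form of ratio nearest to the study's own, also gave 1, 4 and 4, of which 1, 3 and 1 passed an adjusted p of 0.05. The 3 for BFD were Atf5 (log2 0.51, adjusted p = 0.0195), Kdm1a (-0.17, 0.0374) and Ebf1 (-0.23, 0.0420).

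For the choice factor Lhx2 no difference with odour was detectable. With NCD odour its log2 ratio ran from 1.31 to 1.58 with a median of 1.43, with BFD odour it was 0.83, 1.48, 1.66, 1.24 and 1.50, and with HFD_lard odour 1.42, 1.45, 1.70, 1.42 and 1.27. All these overlapped the pools without odour, and the low BFD value belonged to replicate 1. The log2 difference from no odour was 0.04 for NCD (95% confidence interval -0.19 to 0.28), -0.06 for BFD (-0.31 to 0.19) and 0.05 for HFD_lard (-0.19 to 0.30). For Ldb1 the estimates were -0.05, -0.15 and -0.13, none past an unadjusted p of 0.05.

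Ebf1 and Emx2 had estimates below 0 with each odour, none past the threshold. The Ebf1 log2 ratio with BFD odour was 0.08, 0.15, 0.10, 0.05 and 0.15, all below the lowest pool without odour, a separation shown by 12.7% of all genes in that comparison. The estimate was -0.22 (adjusted p = 0.0895), against -0.13 for NCD and -0.19 for HFD_lard (adjusted p = 0.346 and 0.167). Emx2 differed by -0.15, -0.22 and -0.06, with adjusted p from 0.110 to 0.728.

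Among the feedback genes, Kdm1a gave the most regular difference. Its log2 ratio with NCD odour ran from -0.13 to 0.03 with a median of 0.01, and all 6 pools lay below the 5 without odour, as was the case for 10.2% of genes. With BFD odour it was -0.01, 0.19, 0.07, -0.05 and 0.07, and with HFD_lard odour -0.07, 0.04, -0.10, 0.14 and 0.04, so that single pools of both groups reached the range without odour. No member's HFD_lard ratios separated from those without odour, where 10.5% of genes did. The log2 difference was -0.25 for NCD (95% confidence interval -0.39 to -0.11, adjusted p = 0.0167), -0.17 for BFD (-0.32 to -0.03, adjusted p = 0.0779) and -0.21 for HFD_lard (-0.36 to -0.07, adjusted p = 0.0390). At the looser threshold of 0.05, Kdm1a was thus the sole member past it for NCD and HFD_lard, beside 13.1% and 15.7% of all genes. With BFD, 0 members and 22.5% of genes were past 0.05 in edgeR, against the 3 members given above in DESeq2 on the divided counts. The NCD value was past 0.05 in 30 of 30 alternative analyses and the HFD_lard value in 19 of 30. Fits that leave out a pool of an odour not compared are among the 30 and bear little on the estimate.

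The separation lay in the pulldown. Kdm1a took 83.6, 79.6, 81.0, 77.5 and 73.16 CPM of pulldowns without odour, 67.0 to 73.15 with NCD, 63.2, 68.6, 61.1, 69.5 and 68.0 with BFD and 59.1, 61.1, 61.3, 72.3 and 67.0 with HFD_lard. All 16 pools with odour lay below all 5 without, for NCD by a very narrow margin. Such a separation was shown by 10.8%, 7.89% and 16.4% of genes for the 3 odours. Inputs of Kdm1a overlapped throughout. Emx2 pulldowns separated in the same way for NCD and BFD, with 79.2 to 90.1 CPM without odour against 57.5 to 78.05 and 60.8 to 77.4. Summed markers of several cell classes moved with these values. Each sum is weighted to its most abundant genes. For instance, the mean over the 21 pulldowns was 115 CPM for the immune marker Lyz2 but 5.35 for C1qa. For stroma it was 796 CPM for Col1a1 and 55.5 for Dcn, and for mature neurons 7893 for Stoml3 and 159 for Ano2. Genes within a sum need not move alike. The pulldown CPM of 6 immature neuron markers was 1671 to 1700 without odour, 1495 to 1567 with NCD, 1407 to 1499 with BFD and 1443 to 1489 with HFD_lard. All 6 were detected, and 1, 2 and 2 of them were called lower in log2 ratio. The sum of 6 progenitor markers was 155 to 161, 126 to 143, 117 to 136 and 131 to 147 CPM in the same pulldowns. That of 4 immune cell markers was 181.5 to 197 CPM without odour, 119 to 127 with NCD, 122 to 142 with BFD and 118 to 133 with HFD_lard, and 1 of the 4 was called lower in log2 ratio, with BFD. Stromal and vessel markers (4) summed to 1469 to 1811 CPM without odour, 1080 to 1179 with NCD, 855 to 1469 with BFD and 1119 to 1767 with HFD_lard, none of them called. In the other direction, 8 mature neuron markers summed to 15674 to 19147 CPM without odour and 20607 to 23430 with NCD, which did not overlap, and to 17461 to 24248 with BFD and 18877 to 21886 with HFD_lard, with 2 of the 8 called higher in log2 ratio with BFD. Sums of gland markers were also separated from the pools without odour with NCD (lower), and with HFD_lard those of horizontal basal cells (lower), ensheathing glia and red blood cells (both higher), while sustentacular and ciliated cell sums overlapped. The part of any of these classes in the Kdm1a and Emx2 values was not tested.

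Atf5 had the largest positive estimates of the members and also the largest spread. With NCD odour its log2 ratio ran from 1.56 to 1.80 with a median of 1.74, with BFD odour it was 1.19, 2.18, 2.56, 1.80 and 1.75 and with HFD_lard odour 1.55, 2.39, 1.91, 1.87 and 1.44. The NCD and HFD_lard pools overlapped the 1.25 to 1.61 of the pools without odour at their lower end and rose beyond it at their upper end. With BFD, replicate 1 lay below that range and the other pools lay above it. The log2 difference was 0.26 for NCD (95% confidence interval -0.10 to 0.63, adjusted p = 0.357), 0.45 for BFD (0.06 to 0.83, adjusted p = 0.0916) and 0.38 for HFD_lard (-0.00 to 0.77, adjusted p = 0.174). Single pools moved the BFD estimate, which was 0.28 without BFD replicate 3 and 0.62 without BFD replicate 1. Of 30 alternative analyses of the BFD value, 3 passed an adjusted p of 0.05, namely the fit without BFD replicate 1 (adjusted p = 0.00560), DESeq2 on the divided counts (0.0195) and DESeq2 with the same design (0.0382). Pulldown and input contributed differently, since Atf5 pulldowns with HFD_lard odour were tight (2869 to 3212 CPM) while the inputs were 1070.3, 613, 828.8, 854 and 1059 CPM. The 2.39 of HFD_lard replicate 2 and the 2.56 of BFD replicate 3 both came from the lowest Atf5 input of their group, 613 and 567 CPM.

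**Figure D2:**
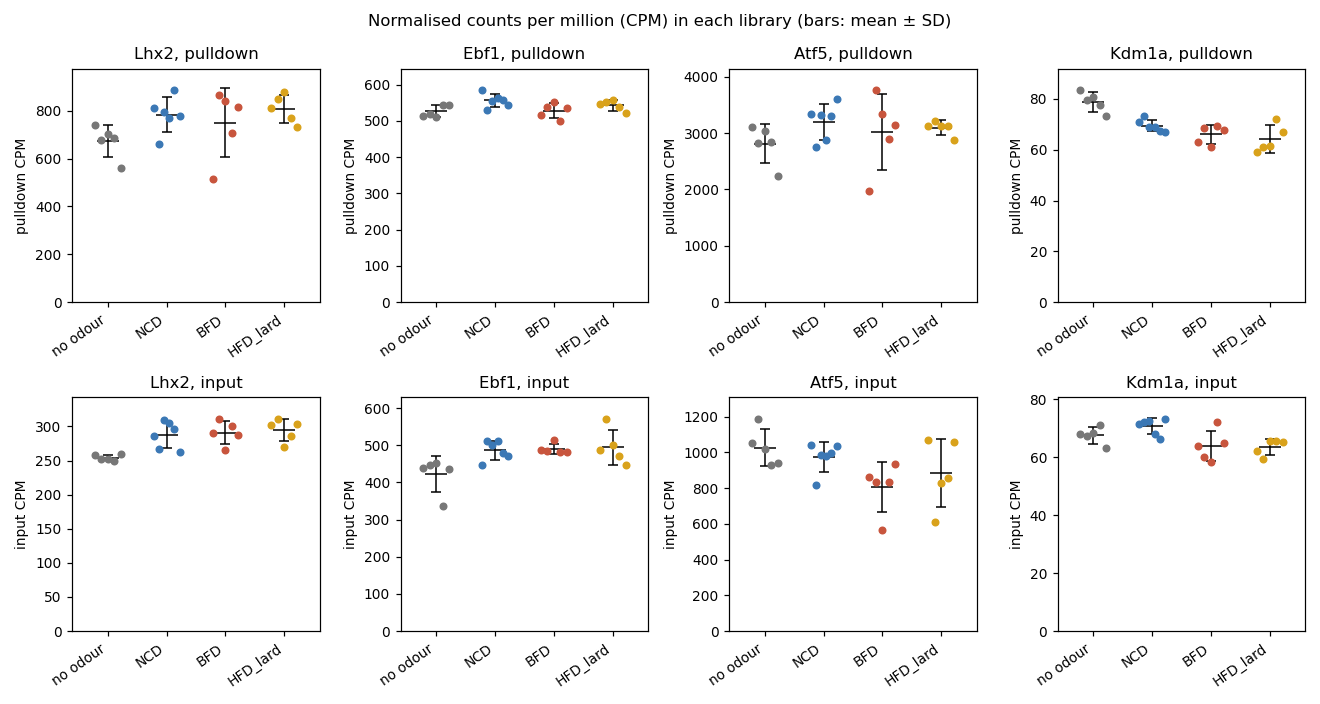
CPM of Lhx2, Ebf1, Atf5 and Kdm1a (y axes, starting at 0) in pulldown and input libraries of the 4 odour groups (x axes), 1 point per pool with the group mean and SD. Lhx2 inputs with odour all lie above the 249.8 to 259 CPM without odour, and Kdm1a pulldowns with odour all lie below the 73.2 to 83.6 CPM without odour.

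Eif2ak3 and Lbr gave no difference past an unadjusted p of 0.05 in log2 ratio, with estimates of -0.17, -0.18 and -0.24 for Eif2ak3 and -0.28, -0.13 and -0.23 for Lbr. Of the chaperones, Rtp2 differed by -0.00, 0.10 and -0.07 and Rtp1 by -0.02, 0.01 and -0.19. The HFD_lard value of Rtp1 had a 95% confidence interval of -0.37 to -0.01 and an adjusted p of 0.147.

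The odours were also compared with one another, in 3 comparisons of the ratio, and 0 of 10 members changed (0.0378% of genes for HFD_lard over BFD, 0.0236% for HFD_lard over NCD and 0.00945% for BFD over NCD). At an unadjusted p under 0.05, edgeR gave 2 members for HFD_lard over BFD and 0 for each of the others, and DESeq2 gave 2, 1 and 0, where edgeR gave 8%, 4.62% and 7.24% of all genes. Those 2 were the chaperones. Rtp1 log2 ratios were -0.17, -0.66, -0.39, -0.48 and -0.29 with HFD_lard and -0.21, -0.21, -0.32, -0.24 and -0.03 with BFD. Rtp2 had -0.22, -0.48, -0.53, -0.42 and -0.32 with HFD_lard and -0.20, -0.21, -0.35, -0.25 and -0.11 with BFD. The 2 groups overlapped for both genes, and the HFD_lard median was the lower. The differences of -0.20 for Rtp1 (95% confidence interval -0.38 to -0.02, adjusted p = 0.589) and -0.17 for Rtp2 (-0.33 to -0.01, adjusted p = 0.596) did not pass correction. In the ratio, no member's interval between odours extended beyond 0.55 in size, a bound reached by Atf5 for BFD over NCD.

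**Figure D3:**
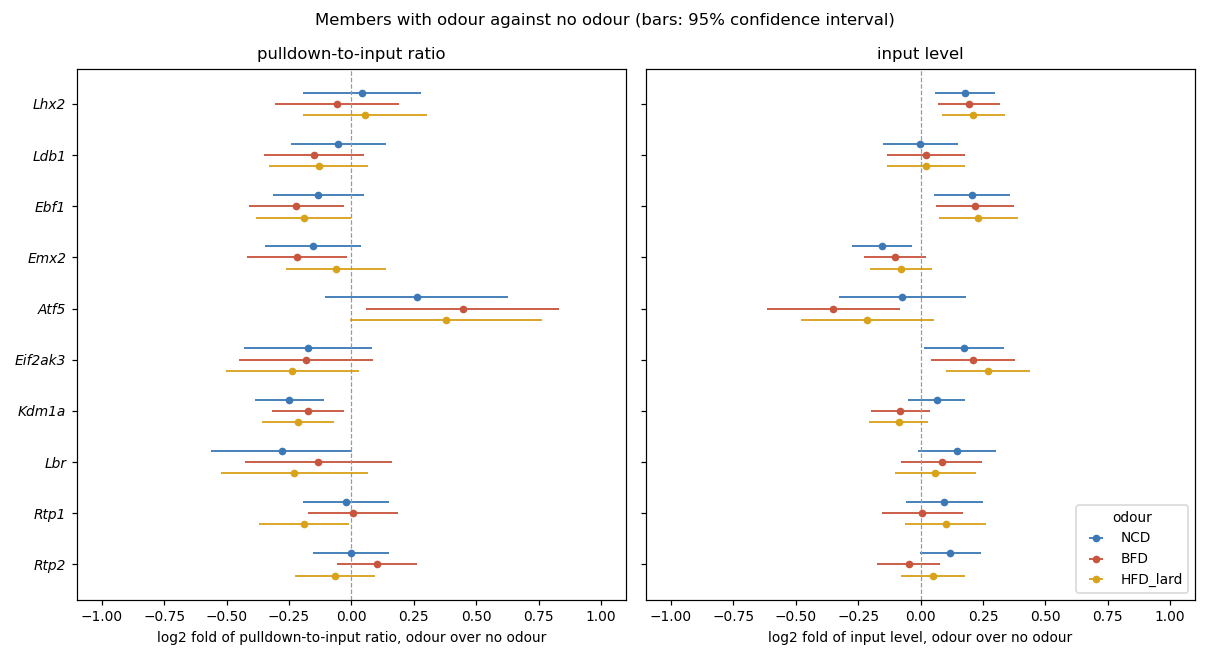
Log2 difference of each odour from no odour (x axis) for the 10 members (y axis), in the pulldown-to-input ratio and in the inputs, with points for the estimates and bars for 95% confidence intervals of edgeR fits. In the ratio, Kdm1a lies below 0 with all 3 odours and Atf5 has the widest bars, and in the inputs Lhx2 and Ebf1 lie above 0 with all 3.

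In the whole tissue, Lhx2 was slightly more abundant after odour at the looser threshold of 0.05, not at 0.001. Its input CPM was 258, 252, 252, 249.8 and 259 without odour, 263 to 309 with NCD (median 291), 289.9, 311, 265, 300.3 and 288 with BFD and 303, 310.2, 270.0, 287 and 303 with HFD_lard. All 16 inputs with odour lay above all 5 without. Separation of this kind was found for 10.6% of genes with NCD, 27.4% with BFD and 8.81% with HFD_lard. The log2 difference was 0.18 for NCD (adjusted p = 0.0293), 0.19 for BFD (0.0128) and 0.21 for HFD_lard (0.0160).

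No member's input passed the study's threshold, 0 of 10 in each comparison with no odour, where 0.968%, 13.1% and 0.935% of genes did. At an unadjusted p under 0.05, edgeR gave 4 members for NCD, 4 for BFD and 3 for HFD_lard, and DESeq2 gave 5, 4 and 3, where edgeR gave 34.8%, 46.1% and 34% of all genes. At an adjusted p under 0.05 there were 2, 4 and 3, beside 22.5%, 38.5% and 20.7% of all genes. Ebf1 inputs were 439, 446, 451, 336 and 437 CPM without odour, 447 to 510.4 with NCD, 487, 484, 514, 483 and 483 with BFD and 487, 571, 500.1, 471 and 446 with HFD_lard. All 5 BFD inputs lay above all 5 without odour, and replicate 4 without odour was far below the rest. The Ebf1 difference was 0.21, 0.22 and 0.23 (adjusted p = 0.0439, 0.0261 and 0.0329), and without that pool 0.13, 0.13 and 0.15 (adjusted p = 0.124, 0.0925 and 0.0805).

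Eif2ak3 inputs were 7.79 to 11.1 CPM without odour and 11.3 to 12.03 CPM with HFD_lard, with no overlap (log2 0.27, adjusted p = 0.0222). With BFD they were 10.4 to 12.9 CPM (0.21, adjusted p = 0.0431), and without replicate 4 of the pools without odour the BFD value was 0.12 (adjusted p = 0.214) and the HFD_lard value 0.19 (adjusted p = 0.0810). Atf5 inputs moved the other way with BFD, with 863, 832, 567, 834 and 932 CPM against 1051, 1188, 1018, 931 and 942 without odour (log2 -0.35, adjusted p = 0.0349, and -0.25 with adjusted p = 0.110 without BFD replicate 3).

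The share of sequence resembling ribosomal RNA, given above, differed between the same inputs. With that share as a covariate, none of these input values passed 0.05. The estimates of Lhx2 stayed near those without it, at 0.15, 0.15 and 0.18 (adjusted p = 0.578, 0.704 and 0.475), and so did those of Eif2ak3, at 0.17 for BFD and 0.24 for HFD_lard (0.760 and 0.501). Those of Ebf1 became -0.01, -0.10 and -0.00 (0.989, 0.821 and 0.999) and the Atf5 value for BFD became 0.41 (0.466). Summed markers of several cell classes, weighted in the same way to abundant genes, also moved in the inputs. Those of immature neurons were 1111 to 1494 CPM without odour, 1518 to 1730 with NCD, 1546 to 1635 with BFD and, overlapping, 1461 to 1772 with HFD_lard. Progenitor sums were 102 to 139 CPM without odour and higher with BFD (148 to 163) and HFD_lard (147 to 164). Stromal and vessel sums were 2074 to 2883 CPM without odour and lower with NCD (1715 to 1845) and BFD (1570 to 1812). Gland sums were lower with NCD and ensheathing glia sums with BFD. All other input sums overlapped those without odour. Odour and the share of such sequence cannot be told apart in this design, and the part of the marker genes was not tested.

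Between odours, inputs of 0 of 10 members changed (0.0803% of genes for HFD_lard over BFD, 0.0567% for HFD_lard over NCD and 0.104% for BFD over NCD). At an unadjusted p under 0.05, edgeR gave 0, 1 and 3 members and DESeq2 0, 1 and 3, where edgeR gave 18.2%, 6.51% and 21.5% of all genes. Among them Kdm1a inputs were lower by the same amount with HFD_lard and with BFD than with NCD (log2 -0.15, adjusted p = 0.561 and 0.126), and Atf5 and Rtp2 inputs were lower with BFD than with NCD (-0.28, adjusted p = 0.198 and -0.17, adjusted p = 0.107).

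To place the members in their pathways, 43 further genes were listed by role, also with earlier results of these data known. All 43 were tested. Of 10 partners of the choice factors, 5 were called higher and 2 lower in pulldown than in input without odour, to be read against the 19.8% and 16% of all genes given above, as for the lists that follow. The nuclear factor Nfix had a log2 difference of 0.80 (adjusted p = 1.04e-08) and the Ldb1 partner Ssbp3 0.54 (adjusted p = 1.70e-08). With odour, 0 of these 10 ratios passed the threshold in any comparison with no odour, while 6, 9 and 8 did at an unadjusted p under 0.05 for NCD, BFD and HFD_lard, where 27.9%, 33.6% and 29.6% of all genes did. In the inputs Nfix alone was called, with BFD (0.45, adjusted p = 0.000547, and 0.25 with 0.673 when the ribosomal RNA-like share was a covariate).

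Of 18 chromatin genes, 6 were called higher and 1 lower in pulldown without odour. Ehmt2, a histone H3 lysine methyltransferase, was at 0.53 (adjusted p = 7.36e-09) and the heterochromatin protein gene Cbx5 at -0.87 (adjusted p = 2.11e-07). With odour the medians of the 18 were -0.23 for NCD, -0.31 for BFD and -0.25 for HFD_lard, where those of all genes were -0.00, 0.00 and -0.01. The calls were few, with Dnmt3a, a DNA methyltransferase, lower with BFD (-0.70, adjusted p = 0.000561), Cbx3 higher with BFD (0.46, adjusted p = 0.000822) and Ehmt2 lower with HFD_lard (-0.42, adjusted p = 0.000782). For the first 2 the input moved opposite to the ratio, as the Dnmt3a input was higher with BFD (0.59, adjusted p = 0.000323) and the Cbx3 input lower (-0.38, adjusted p = 0.000210). Inputs of the methyltransferase gene Suv39h2 were higher with NCD (0.57, adjusted p = 0.000195) and BFD (0.59, adjusted p = 3.87e-05), and so was that of the Kdm1a partner Rcor1 with BFD (0.34, adjusted p = 0.000967). With the share of ribosomal RNA-like sequence as a covariate, none of these input calls was kept, with the BFD input of Dnmt3a at 0.06 (adjusted p = 0.947), Cbx3 at -0.28 (0.506), Suv39h2 at 0.30 (0.567) and Rcor1 at -0.07 (0.856), and the NCD input of Suv39h2 at 0.37 (0.217). The 3 ratio values were then -0.56 for Dnmt3a (0.0354), 0.49 for Cbx3 (0.0126) and -0.42 for Ehmt2 (0.00101), each past 0.05 and none past 0.001.

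The pathway that Perk and Atf5 belong to, the unfolded protein response with its feedback, held odour differences past the threshold. Of 9 further genes, 5 were called higher and 1 lower in pulldown without odour. The adenylyl cyclase gene Adcy3, needed to lower Kdm1a after choice, lay at 0.77 (adjusted p = 2.13e-10), and Xbp1, whose spliced mRNA encodes a stress-response factor, at -0.74 (adjusted p = 3.59e-10). With odour, Xbp1 was the sole call, and its depletion was smaller each time. Its log2 ratio was -0.68, -0.69, -0.77, -1.004 and -0.53 without odour, -0.35 to -0.18 with NCD, -0.01, -0.02, -0.01, -0.29 and -0.10 with BFD and -0.40, -0.09, -0.17, 0.00 and -0.28 with HFD_lard. All 16 pools with odour lay above all 5 without. Xbp1 pulldowns were 47.8 to 59.3 CPM without odour and, overlapping, 56.7 to 66.8 with NCD. They were 62.3 to 72.3 CPM with BFD and 63.4 to 74.3 with HFD_lard. Xbp1 inputs were 73.9 to 96.0 CPM without odour. With NCD, BFD and HFD_lard they were 66.5 to 80.2, 69.2 to 75.9 and 72.0 to 85.8 CPM, each range lying in part below that without odour. The differences were 0.49 for NCD (adjusted p = 0.000829), 0.65 for BFD (3.99e-05) and 0.55 for HFD_lard (0.000266).

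In the inputs, the chaperone gene Hspa5 (BiP) rose and the pro-apoptotic factor gene Ddit3 (Chop) fell with each odour. Hspa5 had 114, 95.9, 114, 132 and 148 CPM without odour, 157 to 185 with NCD, 171, 168, 185, 193 and 165 with BFD and 149.9, 190.0, 169.8, 176 and 161 with HFD_lard. Its differences were 0.50, 0.55 and 0.49 (adjusted p = 0.000505, 6.78e-05 and 0.000870). Ddit3 had 38.5, 43.4, 37.4, 42.2 and 34.8 CPM without odour, 23.8 to 27.0 with NCD, 22.6, 26.04, 18.9, 22.5 and 27.0 with BFD and 26.6, 20.7, 25.4, 26.3 and 26.9 with HFD_lard. Its differences were -0.63, -0.74 and -0.64 (adjusted p = 3.22e-05, 3.53e-06 and 5.95e-05). For both genes, the groups with odour did not overlap the group without. Trib3, a target of Ddit3, fell with NCD (-0.73, adjusted p = 0.000242) and BFD (-0.64, adjusted p = 0.000202), and the Xbp1 input fell with BFD (-0.32, adjusted p = 0.000965). With the ribosomal RNA-like share as a covariate none of these input values passed the threshold, with Hspa5 at 0.24, 0.15 and 0.20 and Ddit3 at -0.32, -0.28 and -0.31.

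**Figure D4:**
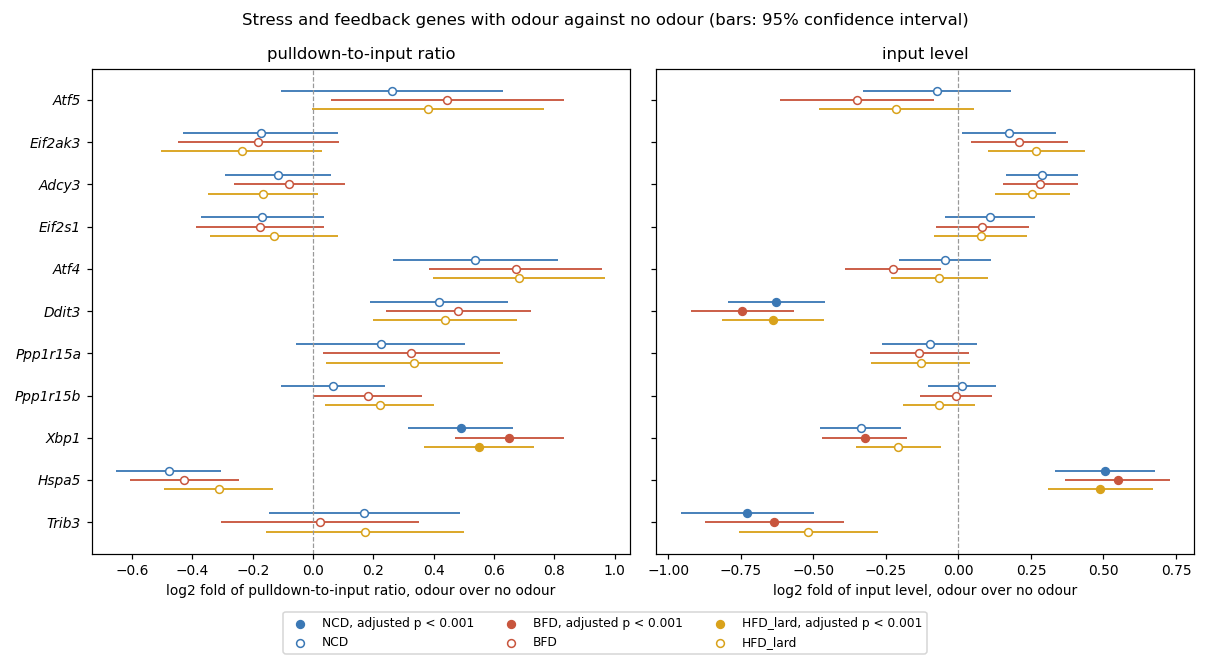
Log2 difference of each odour from no odour (x axis) for Atf5, Eif2ak3 and the 9 listed genes of the unfolded protein response and feedback (y axis), in the ratio and in the inputs, with 95% confidence intervals from edgeR as bars and filled points where the adjusted p was under 0.001. Xbp1 lies above 0 in the ratio at 0.49, 0.65 and 0.55, and in the inputs Hspa5 lies above 0 and Ddit3 below 0 with all 3 odours.

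Of the 6 further trafficking genes, 1 was called higher in pulldown without odour, Rtp3 (1.22, SE 0.24, adjusted p = 0.000102). Rtp3 was barely detected, with a mean over the 21 pools of 0.67 CPM in inputs and 1.50 CPM in pulldowns. Its call was lost in 2 of 29 alternatives. Reep1, a membrane-shaping protein gene that raises receptor surface expression in cultured cells, lay at -0.32 (adjusted p = 0.00247), close to Rtp1 and Rtp2. With odour, 0 of the 6 passed the threshold in the ratio or in the inputs, while at an unadjusted p under 0.05 the ratio gave 2, 2 and 0 genes and the inputs 4, 4 and 3, beside the shares of all genes given above for each comparison.

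Genes whose log2 ratio followed each member most closely over the 21 pools are given as a description, since the values of a pool share the same pair of libraries. Atf5 was followed by Ppp1r15a (Pearson r = 0.955), a phosphatase subunit gene of the same stress pathway, and by Dynll2 (0.943). The Ppp1r15a log2 ratio was 1.14, 0.92, 1.15, 1.13 and 0.71 without odour and 0.80, 1.54, 1.77, 1.35 and 1.21 with BFD, so that replicate 1 was low and replicate 3 high with BFD, as for Atf5. Ebf1 had the closest followers, Rab6b (0.960) and Larp4b (0.949), and Eif2ak3 the least close, Rab23 (0.780) and Orai2 (0.775). For Lhx2 they were Ccdc92 (0.877) and Celf3 (0.875), for Ldb1 Jph3 (0.894) and Clip2 (0.883) and for Emx2 St6gal1 (0.844) and Kif2a (0.844). Kdm1a was followed by Gdf10 (0.838) and Clic4 (0.826), Lbr by Evc2 (0.798) and Prmt9 (0.791), Rtp1 by Sgtb (0.888) and Gpkow (0.875) and Rtp2 by Eps15 (0.862) and Ywhaz (0.843). No member was the closest follower of another.

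Promoters of members were searched for letters bound by their own kind of factor, since Lhx2 and Emx2 are homeodomain proteins. RefSeq windows of 250 bases before to 50 after the start site (GRCm38.p6) gave 14 promoters for 9 of the members. On either strand, the homeodomain core TAATTA stood in 1 of the 14, at Emx2, and in 5.29% of all 32851 windows. The core TAATTG stood in 2 of the 14, both at Ldb1, and in 8% of all windows. The Ebf palindrome was in 0 of the 14 and in 0.904% of all. The Emx2 window (chr19:59458440-59458739, plus strand) and the Ldb1 window (chr19:46045262-46045561, minus strand) are shown because each holds a core, in capitals. For Ldb1 it reads as the reverse complement CAATTA, and the other Ldb1 window with this core is not shown.
Emx2: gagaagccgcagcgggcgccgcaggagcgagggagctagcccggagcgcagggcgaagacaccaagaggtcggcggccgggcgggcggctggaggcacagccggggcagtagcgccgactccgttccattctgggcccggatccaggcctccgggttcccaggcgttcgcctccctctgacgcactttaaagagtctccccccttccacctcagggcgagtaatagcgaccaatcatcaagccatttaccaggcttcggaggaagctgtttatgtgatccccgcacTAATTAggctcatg
Ldb1: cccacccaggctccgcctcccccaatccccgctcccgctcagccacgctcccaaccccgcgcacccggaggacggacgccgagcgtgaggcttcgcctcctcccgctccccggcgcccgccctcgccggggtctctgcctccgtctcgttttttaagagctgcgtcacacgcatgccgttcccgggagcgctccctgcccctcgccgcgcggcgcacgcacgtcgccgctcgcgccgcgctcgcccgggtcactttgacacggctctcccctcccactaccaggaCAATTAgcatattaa
The cores lie 36 and 35 bases after the RefSeq start site of each window. This Ldb1 window lies upstream of the Ldb1 coordinates given above (chr19:46031570-46045214). A match describes the letters only, and binding was not measured.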

How the data were processed

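Main olfactory epithelium of 4 mice per pool was captured by pS6-ribotrap and sequenced beside its input (paired reads of 75 bases). The deposited values are expected counts per gene, which the authors estimated with Salmon on GRCm38 without normalization, and 30.9% are not whole numbers. They were rounded, scaled by trimmed means and filtered (minimum count 10), which left 21168 genes. edgeR 4.0.16 in R 4.3.3 fitted robust quasi-likelihood models, with a term for each pool and pulldown terms per odour for the ratio, and with odour alone for inputs (biological coefficients of variation of 12.0% and 11.7%). Log2 ratios per pool used a prior count of 2. Adjustment was by Benjamini-Hochberg over all genes. Pulldown and input of a pool are paired by the methods, and their deviations correlated with a median r of 0.057 (-0.0056 for other pools of the group). No label pairs replicate numbers across odours. Between odours, pools with the same number had a median r of 0.0078 for ratios and 0.042 for inputs. With other numbers it was 0.0019 and -0.019. Correlations this small cannot show whether these numbers mark a shared batch.

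Members and pathway lists were chosen with earlier results of these data known. Named besides the members were pathway genes called in an odour comparison, the 2 with the smallest p per list without odour, the 2 closest followers of each member and 5 tissue markers. Dnmt3a, Cbx3, Suv39h2, Rcor1, Hspa5, Ddit3 and Trib3 entered as called genes, and Emx2os and Ppp1r15a as an overlapping gene and a follower. No 2 libraries of a group agreed within counting error. Alternatives were DESeq2 1.42.0 (its test and its size factors), no filter, other prior counts and blocks, leaving out each of the 21 pools, and the share of 7 ribosomal RNA-like genes as a covariate or with these genes left out. Scripts were tested on simulated data. Motifs and sequences were read with python 3.11.15 from the GRCm38 reference and RefSeq.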

Additional observations from a re-analysis of the deposited data

Results flagged for a closer look

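Within groups of 5 or 6 pools, 14 of 120 sets of values held a pool whose gap to its nearest neighbour exceeded Dixon's critical value. Chance gives about 1 in 20 for independent sets. These were not independent, since genes share libraries and the log2 ratio is formed from pulldown and input, so the count cannot be judged against that share. No cause was tested. Replicate 4 without odour gave an Ebf1 input of 336 CPM (median of the other pools 442), an Ebf1 log2 ratio of 0.70 (0.22) and an Ldb1 input of 58.1 CPM (70.1). Replicate 6 without odour gave an Atf5 pulldown of 2247 CPM (2942) and an Lhx2 log2 ratio of 1.12 (1.47). BFD replicate 3 gave an Atf5 input of 567 CPM (848) and an Ebf1 input of 514 CPM (483), and BFD replicate 1 an Ldb1 pulldown of 98.3 CPM (118). In HFD_lard pools, replicate 2 gave an Ebf1 log2 ratio of -0.0519 (0.18) and an Lbr input of 10.5 CPM (12.7), replicate 3 an Eif2ak3 input of 11.3 CPM (11.9) and replicate 6 an Atf5 pulldown of 2869 CPM (3132). NCD replicate 2 gave an Atf5 input of 817 CPM (994) and an Lbr input of 11.5 CPM (13.4).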

How the results depend on the processing

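The count of 8 members called without odour ran from 7 to 8 when each pool was left out in turn and dropped to 5 when only the groups compared were fitted (Ebf1, Kdm1a and Rtp2 lost, with fewer samples behind the spread). The 9 called over the 4 odour groups stayed at 9 in each leave-one-out fit, and the 0 of each odour comparison stayed at 0 under each alternative at the threshold of 0.001. At an adjusted p under 0.05 the odour counts became 1 for NCD and 1 for HFD_lard in the ratio and 2, 4 and 3 for NCD, BFD and HFD_lard in the inputs. Kdm1a without odour lost its call in 7 of 29 alternatives. With the ribosomal RNA-like share as a covariate, BFD input values reversed for Rcor1 (-0.0743), Xbp1 (0.0879) and Trib3 (0.0189), and 18 other named values lost their call. The cause was not tested. Calls of pathway genes close to the threshold were fragile: Ehmt2 with HFD_lard lost its call in 21 of 30 alternatives, Xbp1 with NCD in 18, Cbx3 with BFD in 15 and Dnmt3a with BFD in 8, against 5 for Xbp1 with HFD_lard and 2 for Xbp1 with BFD. In the inputs, Rcor1 with BFD kept its call in 5 of 28, Xbp1 with BFD in 8 and Hspa5 with HFD_lard in 8. A replicate block (the number shared across odours) left 8 members called without odour, 9 over the 4 groups and 0 in each odour comparison, and 10 named values lost their call; no replicate block (no pool term) also gave 8 and 9. Depth limits Lbr and Eif2ak3, with as few as 201 and 209 counts in a library.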
